A study of Homo sapiens with 2 samples.

Results

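hsa-miR-3960 and hsa-miR-2861, below miR-3960 and miR-2861, are a pair of microRNAs (miRNAs) encoded side by side on chromosome 9, and both were among the brightest miRNAs of the vesicles studied here. They were taken by name from the probe names in the scanner output, which list 1 probe for each, so the pair makes 2 of 2565 miRNA probes. The pair was chosen by its known place in 1 cluster and by its bright spots and its difference between the arrays in these data, so those values are given as descriptions without a test. The vesicles were exosomes, small membrane vesicles released by cells, of the human liver cancer line HuH-7 (hepatocellular carcinoma), collected from 2 cultures labelled HuH-7-M and HuH-7-P. The series title names liver cancer lines that metastasise strongly within the liver, but the labels do not say what M and P stand for, how the lines were derived or whether they are single clones. Both cultures grew in Dulbecco's modified Eagle's medium with 10% fetal bovine serum and penicillin streptomycin and were moved to advanced DMEM before the supernatant was filtered and spun at 110000 g for 70 min at 4 °C. RNA of each pellet was labelled with Cy5 and hybridised to 1 array, so no difference between the cultures has a replicate and no p-value could be given.

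miRNAs are short RNAs that are cut from a hairpin in a longer transcript and guide silencing complexes to messenger RNAs, mainly by pairing of bases 2 to 8, the seed. Neighbouring hairpins can be cut from 1 transcript, and exosomes carry some of the miRNAs of the cell that releases them. In mouse osteoblasts miR-2861 represses the histone deacetylase Hdac5 and miR-3960 represses the homeobox factor Hoxa2, both of which restrain the bone transcription factor Runx2, and Runx2 in turn binds upstream of the miRNA pair.

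The sequence of the locus is shown first because its base composition recurs in the results. In GRCh38.p14, as RefSeq gives it, the MIR3960 hairpin lies at chr9:127785833-127785923 and mature miR-2861 at chr9:127785971-127785989, both on the + strand, with 47 bases between them. The stretch from the first base of the hairpin to the last base of miR-2861 is printed with the hairpin and mature miR-2861 in capitals.
MIR3960 to miR-2861: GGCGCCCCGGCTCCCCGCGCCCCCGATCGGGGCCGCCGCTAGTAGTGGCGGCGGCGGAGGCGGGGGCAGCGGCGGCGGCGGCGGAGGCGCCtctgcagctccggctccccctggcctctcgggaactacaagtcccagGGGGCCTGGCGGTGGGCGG

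The whole stretch falls inside the window of 250 bases before to 50 bases after the annotated start of CDK9, the gene of a kinase that releases paused RNA polymerase, at chr9:127785784-127786083 on the same strand. On the RefSeq gene table the MIR3960 and MIR2861 genes stand between SH2D3C and an uncharacterised long non-coding RNA on one side and CDK9 on the other. The CDK9 window is 82.0% G and C, against a median of 58.7% over 35116 promoter windows of the same length, and 98.7% of the windows had less. The GC box letters GGGCGG, searched on both strands with overlaps counted, matched 2 times in the window, 1 of them within mature miR-2861, and occur in 45.0% of all windows. The letters GGCGGCGG matched 7 times, 5 of them in the hairpin, and occur in 12.2% of all windows. These matches describe the letters only.

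Mature miR-2861 is shown with its seed in capitals, and the MIR3960 hairpin with its longest run of GGC repeats in capitals (bases 71 to 84).
miR-2861: gGGGCCUGgcggugggcgg
MIR3960 hairpin: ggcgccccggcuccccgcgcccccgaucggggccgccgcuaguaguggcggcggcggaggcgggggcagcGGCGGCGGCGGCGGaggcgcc

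Of the 19 bases of miR-2861, 13 are G and 17 are G or C (89.5%). Of the 91 bases of the MIR3960 hairpin, 45 are G and 80 are G or C (87.9%). The longest run of letters common to both is 6 bases, and no other mature miRNA of the RefSeq table has the seed of miR-2861.

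Signals below are spot medians minus the mean of the 320 BLANK spots of the same array, on an arbitrary linear scale. miR-3960 had a signal of 21094 in HuH-7-M exosomes and 11172 in HuH-7-P exosomes, a ratio of 1.89. It was the second brightest of the miRNA probes on the HuH-7-M array (rank 2) and the fifth on the HuH-7-P array (rank 5). Its single spot held 4.14% of the summed miRNA signal on HuH-7-M against 2.62% on HuH-7-P. miR-2861 had a signal of 2812 in HuH-7-M exosomes and 1725 in HuH-7-P exosomes, a ratio of 1.63. Its rank hardly differed, at 44 on HuH-7-M against 46 on HuH-7-P, and it held 0.552% of the summed signal on HuH-7-M against 0.404% on HuH-7-P. Both miRNAs thus had the higher signal in HuH-7-M exosomes before any scaling, and both lay far above the limit for a signal over background, which was a spot median of 61.2 on HuH-7-M against 62.3 on HuH-7-P.

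The unscaled log2 ratios of HuH-7-M to HuH-7-P, called differences from here on, were 0.92 for miR-3960 and 0.70 for miR-2861. Among the 5 bright control probes with 8 spots each, single spots varied with a log2 SD of 0.13, which gives an SD of 0.18 for a difference of 2 spots. This spot error leaves out any spread between cultures, labelling reactions and arrays, which 1 array per culture cannot show, so it does not say whether the cultures differ.

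Bright control spots were also brighter on the HuH-7-M array. S-Probe28 averaged 24961 ± 2076 on HuH-7-M against 12513 ± 1272 on HuH-7-P (SD over 8 spots of 1 array), a log2 difference of 0.996, and S-Probe27 and S-Probe26 differed by 1.02 and 0.94. The sources used here do not say what the S-Probes detect. Spike Control 1 and Spike Control 2 differed by 0.51 and 0.66. The part of an array-wide difference in bright signal in the miRNA values was not tested. The S-Probe28 spot in the same block and row as miR-3960 read a spot median of 25067 on HuH-7-M against 11109 on HuH-7-P. In that block, which also holds miR-2861, S-Probe28, S-Probe27 and S-Probe26 differed by 1.18, 1.199 and 1.06, each above its value over 8 spots. The 52 measured miRNAs of the block had a median unscaled difference of -0.04, against 0.0035 over all 1593 measured miRNAs. That median takes in miRNAs of any brightness, and a lean of the block's bright spots was not tested.

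**Figure D1:**
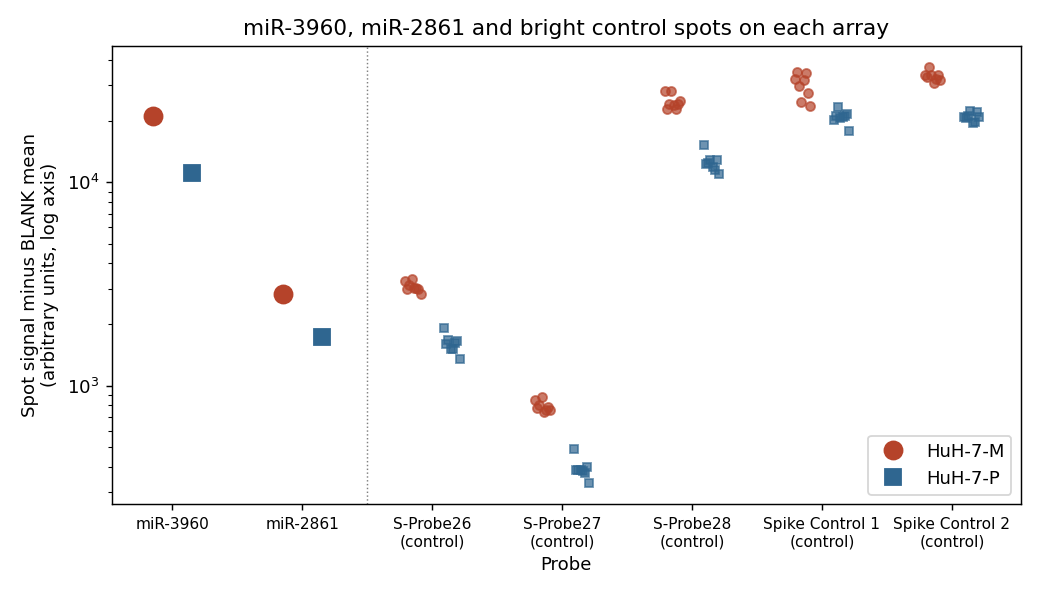
Signal of miR-3960, miR-2861 and the 5 bright control probes, as spot median minus BLANK mean in arbitrary units on a log axis, with HuH-7-M circles left of HuH-7-P squares. Each miRNA has 1 spot per array, at 21094 and 11172 for miR-3960 and 2812 and 1725 for miR-2861, and each control has 8 spots per array, of which the dimmest on HuH-7-M is above the brightest on HuH-7-P.

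The scale set the size of the difference for each miRNA. After quantile normalization over all miRNA probes, the main scale here, miR-3960 was 0.92 higher in HuH-7-M exosomes (1.90-fold) and miR-2861 0.07 higher (1.05-fold). Of the 2 miRNAs, 0 reached a 2-fold difference in either direction on this scale, where 3.08% of the 1593 measured miRNAs (those above background on both arrays) were higher in HuH-7-M exosomes by 2-fold or more and 4.71% were lower by as much. Without scaling the count was also 0 of 2, with 3.33% of measured miRNAs higher and 4.46% lower by that size. miR-3960 ranked 68 from the top among the measured miRNAs by its quantile difference and 76 without scaling, and miR-2861 ranked 721 and 149.

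Scales that tie the arrays to other bright signals brought the difference of miR-3960 down as well. On the Spike Control scale the log2 differences were 0.33 for miR-3960 and 0.12 for miR-2861, with the median of all measured miRNAs at -0.58, and again 0 of 2 were 2-fold higher, against 0.502% of measured miRNAs. Scaled to the median of the miRNAs with a spot median over 1000 on both arrays, they were 0.39 and 0.17, with a median of -0.53 over all measured miRNAs. Cyclic loess over the measured miRNAs, which fits a trend with brightness, put miR-3960 at -0.11 and miR-2861 at 0.16. Loess on values corrected by normexp with an offset of 50 gave -0.16 and 0.17 over the measured miRNAs, and 0.14 and 0.33 over all miRNA probes. miR-2861 was therefore above 0 on every scale tried, and miR-3960 on all but the pair of loess fits over measured miRNAs. No scale tied to the bright S-Probes was tried. S-Probe26, S-Probe27 and S-Probe28 differed by 0.94, 1.02 and 0.996, each above the unscaled differences of both miRNAs.

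Bright miRNAs as a group leaned towards HuH-7-M before scaling. Of 81 miRNAs with a spot median over 1000 on both arrays, the pair included, 68 (84.0%) were above 0 without scaling, against 50.4% of all measured miRNAs. Their median difference was 0.63, with quartiles of 0.27 and 0.86, so that miR-3960 (rank 18 of 81) lay above the upper quartile and miR-2861 (rank 35) near the median. After quantile normalization the median of the 81 was 0.07, equal to the value of miR-2861 (rank 41), and miR-3960 ranked 2. The group's median was 0.05 on the Spike Control scale and 0.05 after cyclic loess. Quantile normalization gives a probe the mean of both arrays at its rank, so miR-3960, at ranks 2 and 5, kept its difference while miR-2861, at ranks 44 and 46, did not.

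In the authors' own processed table, the row matched to miR-2861 by its values held 2362 for HuH-7-M and 1417 for HuH-7-P. Its log2 difference of 0.74 is a rescaling of the same scanner signals, not a separate measurement. The row with the identifier of miR-3960 was blank for both arrays, and no row matched its scanner values.

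**Figure D2:**
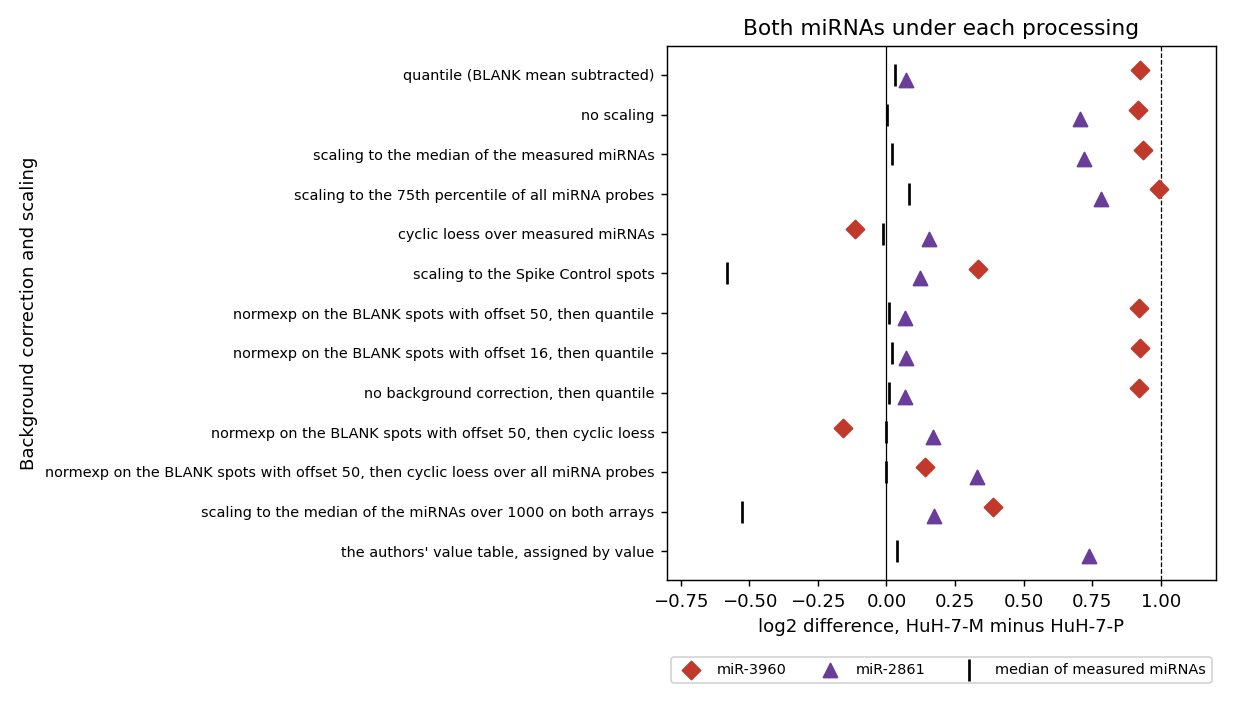
Log2 ratio of HuH-7-M to HuH-7-P for miR-3960 (diamonds) and miR-2861 (triangles) under each background correction and scaling, with the median of the measured miRNAs as a bar and 2-fold as a dashed line. miR-3960 sits near 0.92 under quantile normalization and without scaling, and at -0.11 after cyclic loess, while miR-2861 ranges between 0.07 and 0.78.

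The miRNAs of the pair were also set against each other by the size of their differences. The difference of miR-3960 minus that of miR-2861 was 0.21 without scaling and 0.85 after quantile normalization. It was -0.27 after cyclic loess. Spot error alone gives an SD of 0.25 for such a difference of 2 differences, which is more than the unscaled 0.21. For comparison, 94 other pairs of measured miRNAs from different hairpins on 1 strand within 1000 bases had a median gap in difference, as an absolute value, of 0.49 without scaling and 0.48 after quantile normalization. These pairs are not independent, since 1 cluster can give several. They were not matched to the pair in brightness and include miRNAs near background. The median signal of all measured miRNAs was 32.1 on HuH-7-M against 32.5 on HuH-7-P. The gaps therefore do not rank the pair among pairs of like brightness. In level, miR-3960 exceeded miR-2861 by a log2 of 2.91 on HuH-7-M against 2.69 on HuH-7-P. The median level gap of the 94 pairs was 1.41 on HuH-7-M against 1.23 on HuH-7-P.

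Other miRNAs encoded near the pair were dimmer than either of the pair. Within 1 Mb the RefSeq table holds 7 other mature names, all on the array, and 5 were measured. miR-3154 was the brightest of the 5, with a spot median of 378.7 on HuH-7-M against 391.7 on HuH-7-P (quantile log2 difference 0.01). miR-3911 read 125 on HuH-7-M against 133 on HuH-7-P (-0.14). miR-4672 read 67.0 on HuH-7-M against 66.2 on HuH-7-P (0.41), miR-219a-2-3p 64.0 and 67.0 (-0.33), and miR-219b-5p 64.2 and 65.6 (0.06). miR-199b-3p, whose probe also names miR-199a-3p, and miR-219a-5p were not above background.

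The miRNAs nearest to each of the pair were found by distance in the plane of the log2 signals of both arrays, over the 1593 measured miRNAs. miR-2861 had close neighbours. miR-3196 (2926 on HuH-7-M, 1751 on HuH-7-P) lay at a distance of 0.06 and miR-1469 (2843 and 1599) at 0.11. They were followed by miR-4484 (0.22), miR-6786-5p (0.30) and miR-3621 (0.30). miR-3960 stood alone at the bright end, with its 5 nearest miRNAs at distances between 1.03 and 1.13. The nearest was miR-7704, with 12951 on HuH-7-M against 6652 on HuH-7-P and an unscaled difference of 0.96. The others were miR-7975 (-0.53), miR-5100 (-0.53), miR-1260b (0.63) and miR-7977 (-0.49), so that 3 of the 5 were dimmer on HuH-7-M while miR-3960 was brighter. With 2 arrays the distance describes a likeness of 2 values only. The nearest miRNA of each, with the letters GGCGG in capitals, has the following sequence.
miR-3196: cggGGCGGcaggggccuc
miR-7704: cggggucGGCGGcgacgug

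miR-2861, miR-3196 and miR-1469 have G and C contents of 89.5%, 88.9% and 90.9%, and miR-7704 has 84.2%. The mature sequences were also sorted by G and C content. The choice of the pair did not use this property, but it did use brightness and the difference between the arrays. The place of miR-2861 among miRNAs of like content is therefore a description only. RefSeq gave a sequence for 1402 of the 1593 measured miRNAs, miR-2861 included, and for miR-3960 the table used here gives the hairpin. The class with 80% G and C or over held 67 measured miRNAs. In that class 63 of 67 (94.0%) were brighter on HuH-7-M before scaling, against 50.4% of all measured miRNAs. The class median was 0.68, with quartiles of 0.34 and 0.93, so that miR-2861 (0.70, rank 33 of 67) lay at its middle. Medians were 0.04 for the 551 miRNAs with 60 to under 80% G and C, -0.05 for the 764 with 40 to under 60% and 0.01 for the 20 below 40%.

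The G and C rich class was also the bright one, with median signals of 1101 on HuH-7-M and 681 on the HuH-7-P array. The class below it had 69.6 on HuH-7-M and 72.5 on the HuH-7-P array. Among its members that were not over 1000 on both arrays, 30 of 34 were brighter on HuH-7-M, with a median of 0.65, against 620 of 1297 and a median of -0.02 for miRNAs with less G and C under the same upper limit. Brightness differed between these groups too, with median signals of 143 on HuH-7-M and 91.5 on the HuH-7-P array for the 34, and 28.1 and 29.2 for the 1297. Among miRNAs over 1000 on both arrays, all 33 in the rich class were brighter on HuH-7-M (median 0.70), against 26 of 38 with less G and C (median 0.55). After quantile normalization 52 of the 67 were above 0, where 53.9% of all measured miRNAs were, and the class median was 0.27. miR-2861, at 0.07, ranked 46 of 67 on that scale. On the Spike Control scale 41 of 67 were above 0 with a median of 0.10, where 12.9% of all measured miRNAs were above 0 and their median was -0.58. The brightest of the class were miR-7704, miR-8072 (8782 on HuH-7-M against 4638 on HuH-7-P) and miR-6089 (8368 and 5549). Sequence content and brightness were not separated from array effects, and their part in the values of miR-2861 and miR-3960 was not tested.

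**Figure D3:**
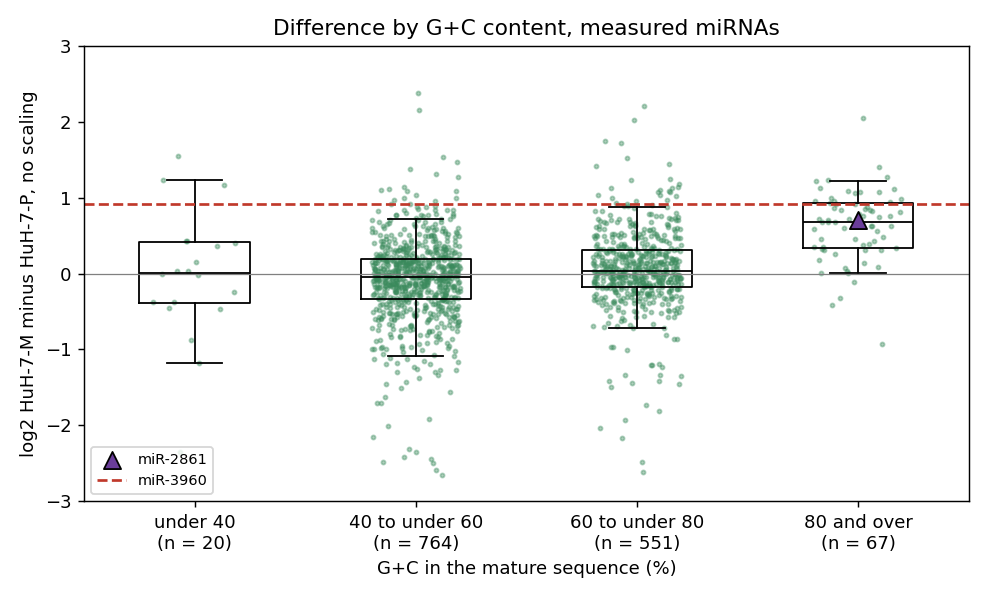
Unscaled log2 ratio of HuH-7-M to HuH-7-P for the measured miRNAs by G and C content of the mature sequence, with boxes at the quartiles, whiskers at the 5th and 95th percentiles and 7 points beyond the axis. The class of 80% and over has a median of 0.68, with miR-2861 (triangle) at 0.70; the dashed line marks miR-3960 at 0.92.

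**Figure D4:**
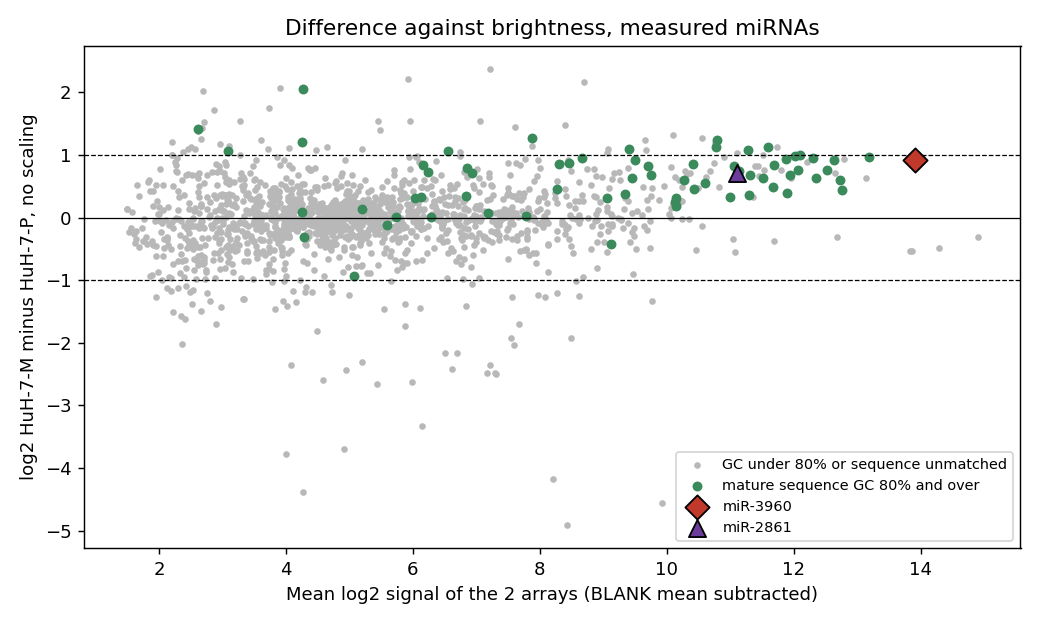
Unscaled log2 ratio of HuH-7-M to HuH-7-P against the mean log2 signal of both arrays for 1593 measured miRNAs, with dashed lines at 2-fold. Green points, with 80% G and C or over, lie mostly above 0, and miR-3960 (diamond) and miR-2861 (triangle) lie between 0 and the 2-fold line.

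The letters GGCGG occur in miR-2861 and repeatedly in the MIR3960 hairpin. They occur in 2.53% of the 2370 mature sequences of the table, and in 57 of the measured miRNAs. This group was formed after the values had been seen. Without scaling, 54 of the 57, miR-2861 among them, were brighter on HuH-7-M with a median of 0.71, where 50.4% of all measured miRNAs were. After quantile normalization 49 were above 0 with a median of 0.30, where 53.9% of all measured miRNAs were. On the Spike Control scale 40 were above 0 with a median of 0.12, where 12.9% of all measured miRNAs were. Within the class of 80% G and C or over, the 24 with GGCGG had a median of 0.79 and the 43 without it 0.49 before scaling, and 0.29 and 0.26 after quantile normalization. The 24 were also brighter, with a median signal of 4385 on HuH-7-M against 2284 on HuH-7-P, where the 43 had 366 and 234. The letters and brightness were not separated in this comparison.

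Runs of 9 or more letters shared with the MIR3960 hairpin were found in 8 other mature miRNAs on the array, and all 8 were measured. The 3 with the longest runs, of 14, 11 and 11 letters, are shown with the shared run in capitals. miR-1292-3p shares bases 2 to 15 of the hairpin, miR-4787-5p bases 45 to 55 in a stretch of GGC repeats, and miR-1228-5p bases 59 to 69 after it.
miR-1292-3p: ucGCGCCCCGGCUCCCguuc
miR-4787-5p: gcggggGUGGCGGCGGCauccc
miR-1228-5p: gugGGCGGGGGCAGgugugug

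miR-1292-3p was dim, with 95.5 on HuH-7-M against 53.2 on HuH-7-P (unscaled difference 0.84). miR-4787-5p had 6992 on HuH-7-M against 3621 on HuH-7-P (0.95), close to the 0.92 of miR-3960. miR-1228-5p had 2938 on HuH-7-M against 2354 on HuH-7-P (0.32). The remaining 5 were miR-6869-5p (0.97), miR-4467 (1.27), miR-5001-5p (0.79), miR-6765-5p (0.49) and the dim miR-4767 (1.21). All 8 were brighter on HuH-7-M before scaling, with a median of 0.90, where 50.4% of all measured miRNAs were, and 7 of 8 were above 0 after quantile normalization (53.9% of all), with a median of 0.54 and miR-1228-5p at -0.25. On the Spike Control scale 6 of 8 were above 0, with a median of 0.31, where 12.9% of all measured miRNAs were. These shares cover miRNAs of any brightness. miR-4787-5p, miR-1228-5p, miR-6869-5p, miR-4467 and miR-6765-5p belong to the 81 with a spot median over 1000 on both arrays. Of the 81, 68 (84.0%) were above 0 without scaling, with a median of 0.63. Their medians were 0.07 after quantile normalization and 0.05 on the Spike Control scale. miR-1292-3p, miR-5001-5p and miR-4767 were dimmer. Shared letters and brightness were not separated here. For miR-2861 the only such miRNA of the table was miR-9851-3p, which has no probe here. Whether RNAs with shared runs bind each other's probes was not tested.

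Because the pair is known from bone, other miRNAs of osteoblast differentiation were read beside it. Of 11 miRNAs described as acting on the RUNX2 messenger RNA, 6 were measured and 0 differed by 2-fold after quantile normalization, where 3.08% of all measured miRNAs were higher and 4.71% lower by that size. Their median was 0.13, against 0.03 over all measured miRNAs, with spot medians of at most 87.5 on HuH-7-M against 76.5 on HuH-7-P. miR-23a-3p, 1 of these, read 87.5 on HuH-7-M against 76.5 on HuH-7-P (0.82), and miR-204-5p (0.33) and miR-338-3p (0.36) were also above 0. The other 3 were below 0, with miR-133a-3p at -0.37, miR-205-5p at -0.33 and miR-30c-5p at -0.06. On the Spike Control scale the median of the 6 was -0.54, close to the -0.58 of all measured miRNAs. Of 8 further miRNAs with reported roles in osteoblasts 6 were measured, with a median of -0.56, and of these 0 were higher and 2 lower by 2-fold or more, against 3.08% higher and 4.71% lower over all measured miRNAs. The 2 were miR-26a-5p, with a spot median of 61.5 on HuH-7-M against 67.6 on HuH-7-P (-1.41), and miR-20a-5p with 70.3 and 85.8 (-1.14), both close to background. With normexp background correction and an offset of 50 in place of subtraction, then quantile normalization, neither reached 2-fold. The list medians were then 0.01 for the RUNX2 miRNAs and -0.06 for the further ones. miR-210-3p, a miRNA induced by low oxygen, read 100.4 on HuH-7-M against 85.7 on HuH-7-P (0.74), and miR-22-3p had a difference of 0.57. As with the RUNX2 list, 0 of these 6 miRNAs passed the No Probe limit on both arrays. On the Spike Control scale the median of the 6 was -1.24 and 4 were lower by 2-fold or more, where the median of all measured miRNAs was -0.58 and 16.3% of them were lower by as much.

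miR-122-5p, the defining miRNA of hepatocytes, was dim in these vesicles, with a spot median of 126 on HuH-7-M against 99.7 on HuH-7-P, and the other 3 hepatocyte miRNAs read (miR-885-5p, miR-192-5p and miR-194-5p) had spot medians between 69.6 and 95.6 on HuH-7-M and between 73.6 and 89.6 on HuH-7-P. Of 8 probes for blood, endothelial and muscle miRNAs, 6 were measured, with spot medians of at most 87.2 on HuH-7-M against 168 on HuH-7-P. The highest of them on HuH-7-P was the muscle miRNA miR-206, with 76.0 on HuH-7-M. miR-126-3p of endothelium and miR-1-3p of muscle were not above background on either array.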

How the data were processed

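The authors deposited a scanner output for each array, with spot median intensity values in the Cy5 channel. Per the file headers, readings at 3 scanner gains were joined by least-squares lines. BLANK spots averaged 58.7 (HuH-7-M) and 59.7 (HuH-7-P), so no background had been subtracted. Whole-number spots (31 on HuH-7-M, 29 on HuH-7-P) were those of 11109 or more, miR-3960 among them on both arrays and miR-2861 on neither. The authors' deposited table of processed intensity values could be rebuilt as the spot median minus the trimmed BLANK mean, scaled to a median of 25 (relative tolerance 1e-05; 1739 of 1747 probes above background on either array matched 1 row). No source used here names the software.

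The BLANK mean was subtracted, arrays were quantile-normalized over miRNA probes (limma 3.58.1, R 4.3.3), and log2 ratios of HuH-7-M to HuH-7-P taken. The quantile step found the direction of shifts simulated on HuH-7-P spots. The simulation held no array difference that changes with brightness, so it does not test the choice of scale here. Measured means a spot median over the BLANK mean plus 2 SD, after trimming 5% at each end, on both arrays (1593 miRNAs). Precision was limited by 1 array per group, grouped by title. Alternatives were other background corrections, scalings, filters and the authors' table.

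The 2 miRNAs and the lists were chosen with earlier results of these data known. Named miRNAs were the pair, the 5 nearest to each by signal, those sharing 9 or more bases, those within 1 Mb, members of the osteoblast and cell type lists, and the 3 brightest of the top G and C class. GGCGG and the close pairs were added after seeing the data. Sequences are from RefSeq (GRCh38.p14; 2253 of 2565 probes matched by name).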

Additional observations from a re-analysis of the deposited data

How the results depend on the processing

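Values are log2 ratios of HuH-7-M to HuH-7-P. For miR-2861, 0.07 on the quantile scale became 0.70 without scaling and 0.72 scaled to the median of the measured miRNAs. It was 0.78 scaled to the 75th percentile and 0.74 in the row of the authors' table matched by value. With normexp background correction, an offset of 50 and loess over all miRNA probes, chosen after seeing the data, it was 0.33. The other alternatives moved it by less than the SD of a difference of 2 spots, 0.18. For miR-3960, 0.92 became -0.11 after cyclic loess, 0.33 on the Spike Control scale and, in alternatives chosen after seeing the data, -0.16 (normexp with the offset, loess over measured miRNAs), 0.14 (the same, loess over all miRNA probes) and 0.39 (scaled to bright miRNAs). The gap between both, 0.85, was 0.21 under each scaling by 1 factor, -0.27 after cyclic loess, and -0.33 and -0.19 after normexp with the offset and loess over measured and over all probes. The causes were not tested. The 49 higher and 75 lower miRNAs became 8 and 259 on the Spike Control scale, 12 and 228 scaled to bright miRNAs, 7 and 28 with normexp and an offset of 50, 16 and 40 with normexp and an offset of 16, 7 and 26 without background correction, 7 and 32 (measured miRNAs) and 9 and 29 (all probes) with normexp, the offset of 50 and loess, 17 and 32 under the No Probe limit, and 105 and 139 without a filter. The normexp settings change the correction and the offset together. The filters change how many miRNAs are tested. On the 75th percentile scale miR-3960 was 0.995, just under 2-fold. No paired analysis was possible because each culture has 1 array. Both miRNAs are far above background, so depth of signal limits the dim neighbours and list members, not the pair.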
